A study of Mus musculus with 12 samples.

Results

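The tissue inhibitors of metalloproteinases (TIMPs) were examined in mouse lung after paraquat (PQ), a herbicide that damages the lung. The family was taken as the genes whose symbol in the deposited tables is Timp1, Timp2, Timp3 or Timp4, which gave 4 of the 20774 genes listed. Each of the 4 was present in all 12 libraries, and all 4 passed the filter on low counts. The groups were PQ 1w, control 1w, PQ 4w and control 4w, with 3 libraries each, and 1w and 4w in the labels were taken to mean weeks 1 and 4. PQ mice had a single instillation of paraquat in saline into the trachea, and control mice had saline. All animals were wild type C57BL/6J, their age was labelled 8 weeks, and the dose was not given in the sources used here. Nothing in the labels says that the numbered replicates of a group came from different animals, so a p-value here reflects the spread among these libraries, which may be technical.

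RNA came from homogenized whole lung, and library totals were 17220978 to 18559809 expected counts. Markers of lung epithelium were abundant: the summed level of 6 alveolar type 2 markers was 15834 to 31748 CPM (counts scaled to a library total of 1e6) over the 12 libraries. In bulk tissue, fewer cells of a type and less RNA per cell cannot be told apart. PQ 4w replicate 3 stood apart from the other PQ 4w libraries in airway transcripts, with 23761 CPM for 6 club and ciliated cell markers, against 38128 and 47464 CPM in PQ 4w replicates 1 and 2.

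TIMPs are secreted proteins that block matrix metalloproteinases (MMPs) by binding the zinc in the active site, and some of them also block the ADAM and ADAMTS proteases. Timp1 is the inducible member, binds the precursor of Mmp9 and inhibits the membrane-type MMPs poorly. Timp2 is made widely and constantly, and takes part at the cell surface with Mmp14 in the activation of the Mmp2 precursor. Timp3 is held in the extracellular matrix, inhibits Adam17 and the ADAMTS aggrecanases, and is needed in mice for normal airspaces. Timp4 is best known from heart, fat and brain. The balance of MMPs and TIMPs is known to set how collagen and other matrix is removed in injured and fibrotic lung.

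The members lie on 4 chromosomes of GRCm38 (mm10). Timp1 is at chrX:20870166-20874737 on the plus strand, Timp2 at chr11:118301061-118355411 on the minus strand, Timp3 at chr10:86300412-86349505 on the plus strand and Timp4 at chr6:115244444-115252205 on the minus strand. Timp1, Timp3 and Timp4 lie inside the synapsin genes Syn1, Syn3 and Syn2, which run on the opposite strand. The promoter sequences are shown because members of 1 family differed in their response to PQ. Each runs from 250 bases before to 50 bases after the start site (RefSeq, GRCm38.p6), 5′ to 3′ on the gene's strand, and all 4 members matched an entry. Capitals mark matches, on either strand, to AP-1 motifs (TGANTCA and the variant TGAGTAA) and to the Ets motif AGGAAG, none of which overlap. The windows are chrX:20869916-20870215 for Timp1, chr11:118355362-118355661 for Timp2, chr10:86300162-86300461 for Timp3 and chr6:115252156-115252455 for Timp4.
Timp1: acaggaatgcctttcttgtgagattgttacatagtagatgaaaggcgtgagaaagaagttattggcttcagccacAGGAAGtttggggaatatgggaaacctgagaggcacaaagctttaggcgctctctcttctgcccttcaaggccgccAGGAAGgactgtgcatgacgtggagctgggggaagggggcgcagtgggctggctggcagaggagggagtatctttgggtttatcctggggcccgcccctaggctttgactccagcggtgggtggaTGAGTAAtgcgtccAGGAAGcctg
Timp2: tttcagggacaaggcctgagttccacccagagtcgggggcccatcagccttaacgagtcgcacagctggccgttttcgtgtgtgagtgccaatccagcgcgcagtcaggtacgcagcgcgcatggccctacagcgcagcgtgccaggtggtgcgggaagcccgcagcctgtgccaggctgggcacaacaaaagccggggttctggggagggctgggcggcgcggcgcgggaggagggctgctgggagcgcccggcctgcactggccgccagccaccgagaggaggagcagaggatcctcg
Timp3: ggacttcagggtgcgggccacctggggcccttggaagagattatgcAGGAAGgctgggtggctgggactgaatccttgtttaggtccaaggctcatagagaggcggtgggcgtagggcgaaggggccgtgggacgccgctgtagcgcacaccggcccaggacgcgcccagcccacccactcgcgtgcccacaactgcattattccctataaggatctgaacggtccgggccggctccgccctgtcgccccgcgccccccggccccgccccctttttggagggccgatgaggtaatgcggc
Timp4: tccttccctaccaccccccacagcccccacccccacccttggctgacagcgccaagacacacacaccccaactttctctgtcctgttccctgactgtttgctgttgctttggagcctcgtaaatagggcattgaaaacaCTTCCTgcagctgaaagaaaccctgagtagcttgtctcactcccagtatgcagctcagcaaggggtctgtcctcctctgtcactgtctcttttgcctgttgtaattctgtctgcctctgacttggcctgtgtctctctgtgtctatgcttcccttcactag
In Timp1 the variant TGAGTAA began 27 bases after the start site, and AGGAAG began at 41 after it and at 175 and 99 before it. TGAGTAA was found in 2.68% of 32851 mouse promoter windows of the same length, and AGGAAG in 35.4%. The TGAGTAA and AGGAAG pair with a spacer of 7 bases, the spacing seen in the Timp1 window, occurred in 2 promoters of 2 genes. Timp1 is 1 of these by construction, so this count does not set it apart from other genes. Timp3 had 1 AGGAAG match, 204 bases before the start, and Timp4 had 1 on the opposite strand, 111 bases before it. Timp2 had none of these motifs in its window. The Sp1 motif GGGCGG matched in Timp1, Timp2 and Timp3, with 35.7% of windows holding it. TGANTCA (7.81% of windows), the TATA box letters TATAAA (13.6%) and the STAT motif TTCNNNGAA (8.30%) had no match in any of the 4 windows. A match is a description of these letters and not a measured binding site.

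Timp1 was the member with the large response to PQ, and that response was seen at 1w. Timp1 had 98.2, 116.5 and 111 CPM in PQ 1w libraries, against 11.04, 10.1 and 9.26 CPM in control 1w libraries. Every PQ 1w library was far above every control 1w library. Timp1 rose 10.6-fold (log2 3.41 ± 0.18 SE, n = 3 each, adjusted p = 8.81e-08, edgeR's quasi-likelihood test with Benjamini-Hochberg adjustment over all 15921 genes tested, as for every adjusted p given for a gene). It ranked 76 from the top of all tested genes by log2 effect at 1w. At 4w, Timp1 had 11.3, 15.5 and 10.9 CPM in PQ libraries, against 7.61, 13.0 and 7.80 CPM in control libraries. The 4w groups overlapped through control 4w replicate 2, and the difference did not pass (log2 0.34 ± 0.19, adjusted p = 0.269). Without control 4w replicate 2 the log2 difference was 0.63 with an adjusted p of 0.0407, so 1 control library decides this call. The PQ effect on Timp1 was smaller at 4w than at 1w by 3.07 ± 0.26 on the log2 scale (interaction term, adjusted p = 2.2e-05).

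Timp2, the widely made member, rose slightly at 1w. It had 1139, 1065 and 1097 CPM in PQ 1w libraries, against 828, 861 and 893 CPM in control 1w libraries. The groups did not overlap, and Timp2 was 1.27-fold higher in PQ 1w (log2 0.34 ± 0.07, adjusted p = 0.00109). At 4w it had 793, 823 and 844 CPM in PQ libraries, against 801, 789 and 843 CPM in control libraries. These groups overlapped, and the difference of -0.06 ± 0.07 on the log2 scale did not pass (adjusted p = 0.628) and was 0.02 without scaling factors. The PQ effect on Timp2 was smaller at 4w than at 1w (log2 difference -0.40 ± 0.09, adjusted p = 0.00709).

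Timp3, the matrix-bound member, showed no detectable response to PQ at either time. It had 1349, 1227 and 1296 CPM in PQ 1w libraries, against 1354, 1121 and 1308 CPM in control 1w libraries. The groups overlapped, with control 1w replicate 2 the lowest library, and the log2 difference was 0.02 ± 0.09 (adjusted p = 0.85). At 4w Timp3 had 1066, 1278 and 1166 CPM in PQ libraries, against 1055, 1029.6 and 1095 CPM in control libraries. PQ 4w replicate 1 lay within the control range and the other PQ 4w libraries above it, and the log2 difference was 0.07 ± 0.09 (adjusted p = 0.66). The sign turned at 1w without control 1w replicate 2 (-0.05) or PQ 1w replicate 1 (-0.02), and at 4w without PQ 4w replicate 2 (-0.0013). The 4w and 1w effects differed by 0.05 ± 0.13 on the log2 scale (adjusted p = 0.809).

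Timp4 was the least abundant member and rested on low counts. It had 2.75, 2.32 and 1.36 CPM in PQ 1w libraries, from 51, 43 and 25 expected counts, against 1.18, 1.27 and 1.32 CPM in control 1w libraries, from 21, 23 and 24. The groups did not overlap, but PQ 1w replicate 3 lay next to the control values, and the difference did not pass (log2 0.76 ± 0.48, adjusted p = 0.207). Leaving out PQ 4w replicate 3, which is in neither 1w group but enters the shared estimate of spread, gave log2 0.77 with an adjusted p of 0.0252. At 4w Timp4 had 6.85, 5.10 and 1.37 CPM in PQ libraries, from 118, 89 and 24 counts, against 3.44, 3.94 and 3.48 CPM in control libraries, from 61, 69 and 62. PQ 4w replicates 1 and 2 were above all control 4w libraries and replicate 3 below them. The difference at 4w was 0.22 ± 0.41 on the log2 scale (adjusted p = 0.768), and it was 0.65 without PQ 4w replicate 3 and -0.21 without PQ 4w replicate 1.

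**Figure D1:**
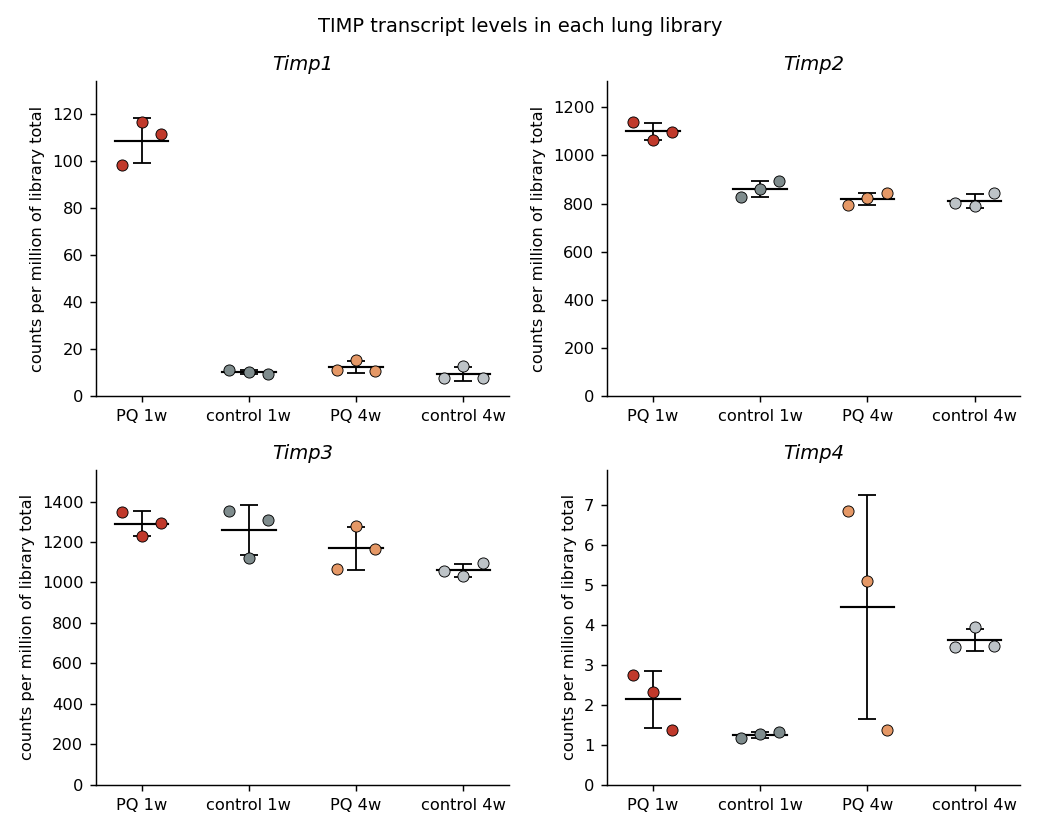
CPM (counts scaled to the library total) for each TIMP gene in every library, with PQ left of control at each week; points are libraries, bars are group means and error bars are SDs (n = 3). The 3 PQ 1w libraries hold 98.2 to 116.5 CPM of Timp1 and every other library at most 15.5 CPM, while Timp3 overlaps between PQ and control at both times.

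Read against all genes tested, the count of responding members is near the background at both times. At 1w, PQ raised 2 of the 4 members, Timp1 and Timp2, and lowered none, where 48.8% of all tested genes passed, 25.9% higher and 22.9% lower. The values of 3 members were higher in every PQ 1w library than in any control 1w library, where the groups of 58.6% of genes did not overlap and 31.5% of genes were higher in this way. At 4w edgeR called 0 of the 4 members, with 12.1% of all genes passing (5.75% higher and 6.39% lower), 0 members at an unadjusted p under 0.05, and 0 members by DESeq2 or limma. The number of genes behind the 12.1% was 1932, and it was 641 without control 4w replicate 1, 994 without PQ 4w replicate 1, 1096 and 1183 without control 4w replicates 2 and 3, and 746 with only the 2 groups in the fit. No member had groups that did not overlap at 4w, against 31.3% of genes. The effects at the 2 times differed for 2 of the 4 members, with 32.0% of genes passing that test, both with a lower effect at 4w, as for 17.9% of genes. The median log2 effect of the members was 0.55 at 1w and 0.15 at 4w, and that of all tested genes was below 0.01 at both times.

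**Figure D2:**
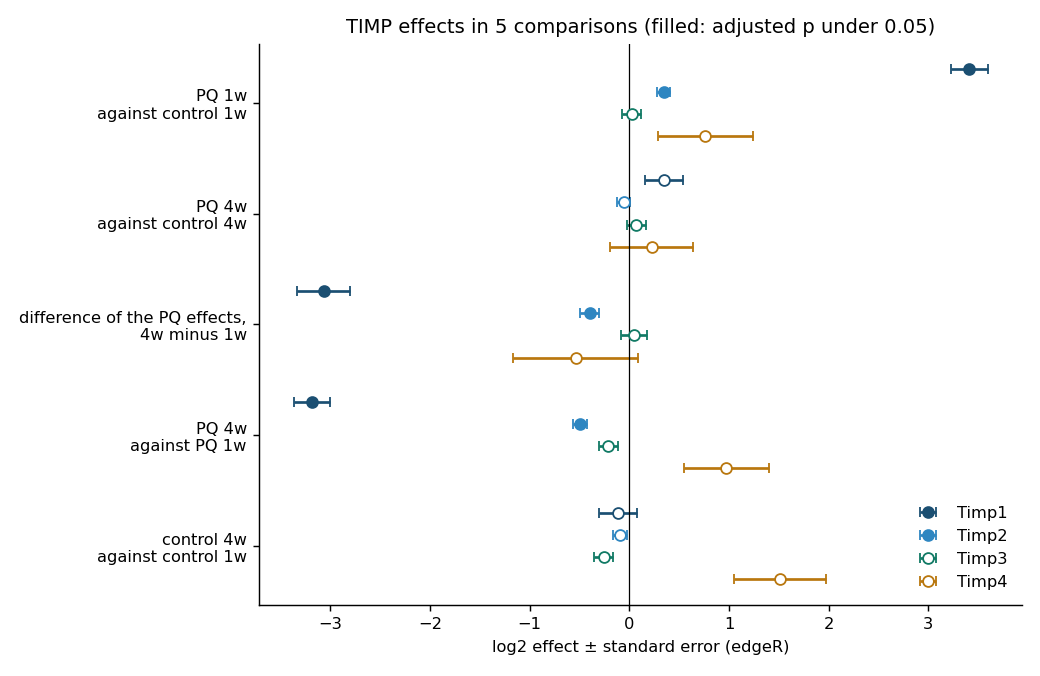
Log2 effects of the 4 TIMP genes in 5 comparisons, from top to bottom; points are edgeR estimates, filled where adjusted p was under 0.05, and bars are approximate standard errors. For PQ against control, Timp1 stands at 3.41 at 1w and 0.34 at 4w, and the Timp3 estimates lie close to 0.

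Between the PQ groups, Timp1 and Timp2 were lower at 4w than at 1w. These comparisons use the same PQ libraries as the comparisons with controls, so they are not separate evidence. Timp1 averaged 12.6 ± 2.58 CPM in PQ 4w and 109 ± 9.49 CPM in PQ 1w (SD, n = 3 each), 9.07-fold lower at 4w (log2 -3.18 ± 0.18, adjusted p = 1.2e-07). Timp2 averaged 819.98 ± 25.8 CPM in PQ 4w and 1100.2 ± 36.7 CPM in PQ 1w, 1.41-fold lower at 4w (log2 -0.49 ± 0.07, adjusted p = 7.15e-05). In this comparison 54.5% of all tested genes passed, and 27.8% of all tested genes were lower. Neither member had overlapping groups, as for 61.1% of genes, with 27.0% of genes lower in this way. Timp3 and Timp4 did not pass, at -0.21 ± 0.09 (adjusted p = 0.0714) and 0.97 ± 0.43 (adjusted p = 0.0717) on the log2 scale. Without PQ 4w replicate 2 Timp3 passed at -0.30 (adjusted p = 0.0249), and without PQ 4w replicate 3 Timp4 passed at 1.38 (adjusted p = 0.00043).

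Between the control groups, edgeR called 0 of the 4 members, where 10.1% of all genes passed. That background of 1609 genes was unstable, at 123 to 678 without any 1 of the control 4w libraries, 337 and 139 without control 1w replicates 1 and 3, 931 without PQ 1w replicate 3 and 2570 without PQ 4w replicate 3. Timp3 and Timp4 had an unadjusted p under 0.05, and DESeq2 called both. Timp4 averaged 3.62 ± 0.278 CPM in control 4w and 1.25 ± 0.0711 CPM in control 1w, with no overlap (log2 1.51 ± 0.46, 2.85-fold, adjusted p = 0.0564, and 0.0173 by DESeq2). It passed without PQ 4w replicate 3 (adjusted p = 0.00243) or PQ 4w replicate 1 (adjusted p = 0.0398), libraries that enter only the shared estimate of spread. Timp3 averaged 1060.02 ± 33.0 CPM in control 4w and 1261 ± 123 CPM in control 1w, again with no overlap (log2 -0.26 ± 0.09, adjusted p = 0.0923, and 0.0218 by DESeq2). The groups of 34.0% of all genes did not overlap in this comparison, 19.8% being higher and 14.2% lower. Timp1 and Timp2 differed by -0.11 ± 0.19 and -0.09 ± 0.07 (adjusted p = 0.735 and 0.371).

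Per length, in the authors' FPKM, Timp2 and Timp3 were the major transcripts and Timp4 the least. Timp2 averaged 301 ± 9.95, 235 ± 8.97, 224 ± 7.15 and 221 ± 7.71 FPKM in PQ 1w, control 1w, PQ 4w and control 4w (SD, n = 3 each). Timp3 averaged 273 ± 12.8, 267 ± 26.2, 247 ± 22.3 and 224 ± 6.96 FPKM in the same order. The FPKM ratio of Timp2 to Timp3 was 1.09, 1.12 and 1.09 in PQ 1w libraries, against 0.79, 0.99 and 0.88 in control 1w libraries. Timp2 was thus above Timp3 in every PQ 1w library and below it in every other library, since the ratio was 0.96, 0.83 and 0.93 in PQ 4w libraries and 0.98, 0.99 and 0.99 in control 4w libraries. In control 4w the levels of Timp2 and Timp3 did not differ beyond their spread. Timp1 averaged 123.4 ± 10.7 FPKM in PQ 1w, against 11.5 ± 1.00 in control 1w, and 14.3 ± 2.94 in PQ 4w, against 10.8 ± 3.46 in control 4w. Timp4 averaged 1.53 ± 0.506 FPKM in PQ 1w, against 0.897 ± 0.0513 in control 1w, and 3.16 ± 1.99 in PQ 4w, against 2.57 ± 0.200 in control 4w.

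As a share of the summed FPKM of the 4 genes, Timp1 made up 17.7% ± 1.82 in PQ 1w, against 2.24% ± 0.231 in control 1w. The share of Timp3 was 39.1% ± 1.13 in PQ 1w, against 51.8% ± 2.76 in control 1w, although its own level overlapped. The summed level was 699 ± 12.7 FPKM in PQ 1w, against 514 ± 26.1 FPKM in control 1w. Each of these 3 differences gave p = 0.1 in an exact two-sided permutation test, the smallest that 3 against 3 libraries allow. Shares are parts of 1 total, so the rise of Timp1 by itself lowers the shares of the other members. The 3 differences contain the rises of Timp1 and Timp2 given above, so they are not separate evidence. The share of Timp2 was 43.0% ± 0.697 in PQ 1w, against 45.8% ± 2.75 in control 1w (exact permutation p = 0.2), and this difference had the opposite sign in shares of counts without length. At 4w the share of Timp2 was 45.9% ± 2.03 in PQ, against 48.2% ± 0.428 in control, with no overlap (exact permutation p = 0.1, again the smallest possible). Timp1 held 2.91% ± 0.464 in PQ, against 2.36% ± 0.798 in control (exact permutation p = 0.3), and the summed level was 488 ± 28.3 FPKM in PQ, against 458 ± 12.3 FPKM in control (exact permutation p = 0.2).

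**Figure D3:**
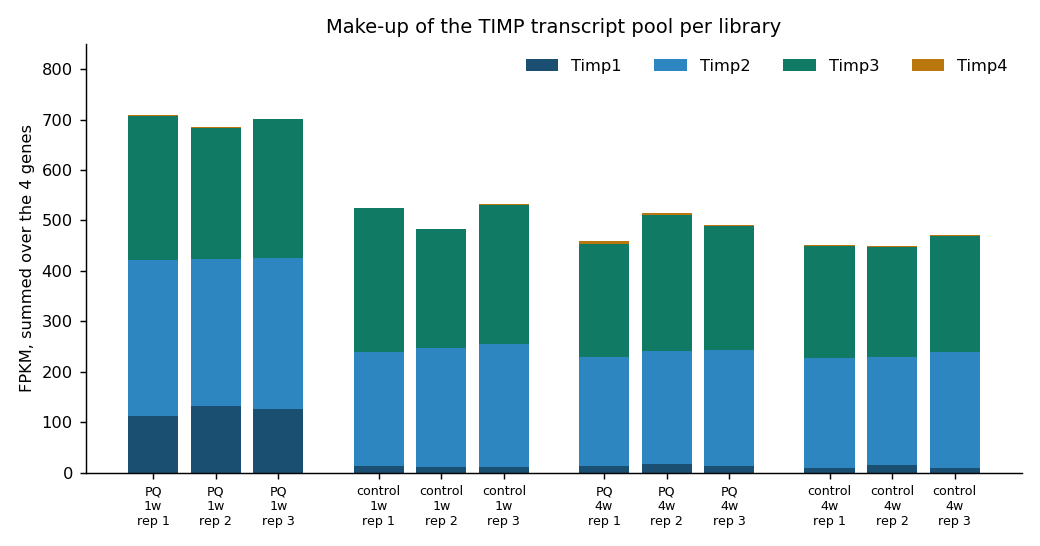
FPKM of the 4 TIMP genes stacked for each library, in FPKM units, with PQ left of control at each week. Timp1 adds a visible band in the PQ 1w libraries, where the stack averages 699 FPKM, against 514 FPKM in control 1w.

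Markers of several cell types differed between PQ and control at 1w, where Timp1 rose. The counts of markers below stand beside 25.9% of all tested genes higher and 22.9% lower at 1w, and 5.75% higher at 4w. No test set the marker lists against other genes. Of 8 fibroblast markers 4 rose and 2 fell, and their summed level was 7592 to 8579 CPM in PQ 1w, against 2275 to 2449 CPM in control 1w. The collagen I genes Col1a1 and Col1a2 carried this rise, with 6494 to 7566 CPM in PQ 1w, against 1235 to 1322 CPM in control 1w. The other 6 fibroblast markers summed to 964 to 1097 CPM in PQ 1w and 953 to 1148 CPM in control 1w, so they overlapped. Of 7 macrophage markers 5 rose, with a summed level of 1802 to 2787 CPM in PQ 1w, against 494 to 575 CPM in control 1w. Spp1, which encodes osteopontin, made up much of this sum, and the other 6 summed to 841 to 873 CPM in PQ 1w, against 418 to 483 CPM in control 1w. Of 6 mesothelial markers 2 rose, a count near that background. Their summed level was 869 to 952 CPM in PQ 1w, against 412 to 479 CPM in control 1w. Msln and Krt19 carried this sum, averaging 446 and 296 CPM in PQ 1w, against 101 and 174 CPM in control 1w. Upk3b, Upk1b, Lrrn4 and Wt1 averaged 74.5, 65.7, 27.6 and 5.66 CPM in PQ 1w. In control 1w these averaged 83.7, 65.2, 26.1 and 5.06 CPM. Of 6 smooth muscle and myofibroblast markers 4 rose, with 1111 to 1133 CPM in PQ 1w, against 589.9 to 749 CPM in control 1w, and all 6 alveolar type 2 markers fell, with 15834 to 17530 CPM in PQ 1w, against 25889 to 31748 CPM in control 1w. No marker of these 5 lists was at 0 throughout a group. At 4w the fibroblast sum was 2152 to 2276 CPM in PQ, against 1928 to 2047 CPM in control, and the macrophage sum was 675 to 848 CPM in PQ, against 489.5 to 517 CPM in control. Of the 7 macrophage markers 4 rose at 4w, where Timp1 did not pass. The part of these cell types in the Timp1 values was not tested.

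At 4w the libraries lowest and highest in Timp4 were also lowest and highest in the ciliated cell transcripts Foxj1 and Ccdc39. Foxj1, the master regulator of motile cilia, had 311, 239 and 124 CPM in PQ 4w libraries, against 159.6, 182 and 184 CPM in control 4w libraries. PQ 4w replicate 3 was thus the lowest 4w library in Foxj1 and in Timp4, and PQ 4w replicate 1 the highest in both. Ccdc39, which is needed for axoneme assembly, had 71.8, 49.4 and 27.0 CPM in PQ 4w libraries, against 30.4, 34.9 and 35.1 CPM in control 4w libraries. At 1w the order was another one, and Foxj1 had 62.7, 88.4 and 73.4 CPM in PQ 1w libraries, against 101.5, 99.5 and 65.7 CPM in control 1w libraries. The 1w PQ effects had opposite signs, at log2 0.76 for Timp4 and -0.26, -0.73 and -0.69 for Foxj1, Ccdc39 and the ciliated marker Dnah5. None of these effects passed. Foxj1 and Ccdc39 were singled out from the club and ciliated cell list after their values were seen. Of the rest, Dnah5 had the same lowest and highest 4w libraries, but Scgb1a1 and Cyp2f2 were not highest in PQ 4w. Scgb1a1 reached 41899 CPM in PQ 4w and 47268 CPM in control 4w. Cyp2f2 was at most 4177 CPM in PQ 4w and at least 4712 CPM in control 4w. Scgb3a2 was 367 to 981 CPM in PQ 4w, against 830 to 917 CPM in control 4w. That list of 6 summed to 4352 to 5446 CPM in PQ 1w, 22013 to 30584 CPM in control 1w, 23761 to 47464 CPM in PQ 4w and 46327 to 53857 CPM in control 4w, with no marker at 0 throughout a group.

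Cardiac muscle transcripts, from a tissue where Timp4 is known to be made, also varied. Of 7 cardiac markers 6 were higher in control 4w than in control 1w, where 10.1% of all genes passed in either direction. That share was unstable, as given above, and the cardiac sums varied widely within groups. They were 580 to 1671 CPM in control 4w and 53.0 to 307 CPM in control 1w. In PQ lungs the cardiac sum was 610, 1058 and 153 CPM at 4w and 65.9, 238 and 206 CPM at 1w, and edgeR called 0 of the 7 between PQ and control at either time, with 0 at 1w and 1 at 4w at an unadjusted p under 0.05. Over all tested genes 48.8% passed at 1w and 12.1% at 4w. The 6 adipocyte markers summed to 4.46 to 65.9 CPM over the 12 libraries, and Lep, the gene of the fat hormone leptin, was at 0 in PQ 1w and PQ 4w. The part of ciliated, cardiac or fat cells in the Timp4 values was not tested.

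**Figure D4:**
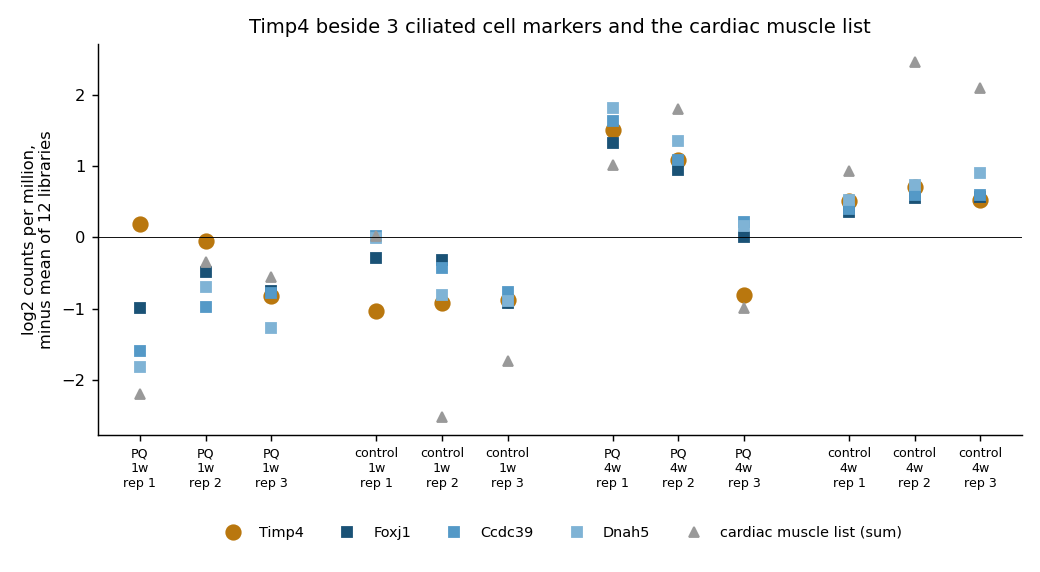
Log2 CPM in each library, minus the mean of the 12 libraries, for Timp4 (circles), 3 ciliated cell markers (squares) and the sum of 7 cardiac markers (triangles), with PQ left of control at each week. Timp4 lies among or next to the ciliated markers in the control 4w libraries, in PQ 4w replicates 1 and 2 and in replicate 3 of PQ 1w and control 1w. It lies below them in PQ 4w replicate 3 and in control 1w replicates 1 and 2, and above them in PQ 1w replicates 1 and 2.

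Reads from the host and neighbouring genes were few beside Timp2 and Timp3. The strandedness of the libraries is not given in the sources used here, so reads of a gene and of its antisense partner cannot be told apart where exons overlap. The exonic bases below join all GENCODE exons of a gene. The deposited lengths were shorter, at 4681 bases for Timp3 and 1416 for Timp4, so the overlap within the transcripts counted is not known. Syn3 shares 1733 of the 8144 exonic bases of Timp3, and its counts were 0.18% to 0.62% of those of Timp3. Syn1 shares none of the 888 exonic bases of Timp1, and its counts were 2.58% to 19.7% of those of Timp1. Syn2 shares 90 of the 5894 exonic bases of Timp4, but had 1.05 to 12.6 times its counts, so the Timp4 values are the least certain. Syn2 averaged 16.1 ± 1.61 CPM in PQ 1w, against 10.2 ± 0.908 CPM in control 1w, and rose (log2 0.64 ± 0.17, adjusted p = 0.00804); the Timp4 estimate was above 0 at both times. The part of Syn2 reads in the Timp4 values was not tested. At 4w Syn2 stood at -0.36 ± 0.18 (adjusted p = 0.205) and between the control groups at -0.05 ± 0.17 (adjusted p = 0.865), where Timp4 stood at 1.51. Syn1 rose (log2 0.98 ± 0.26, adjusted p = 0.00753) and Syn3 fell (log2 -0.85 ± 0.15, adjusted p = 0.000557) in PQ 1w, and the 3 synapsin genes did not pass at 4w. The gene BC100451 lies inside Timp2 on the same strand without shared exonic bases, and its counts were 0.0586% to 0.18% of those of Timp2.

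The genes closest to each member over the 12 libraries were found by the root mean square (RMS) difference of log2 levels centred on each gene's mean, among 12451 genes. For Timp1 they were S100a14, an S100 family calcium-binding protein, at 0.21, Prg4, which encodes lubricin, at 0.22, and Cd109, a membrane-anchored TGF-beta co-receptor, at 0.28, where the median gene stood at 1.47. Prg4 averaged 29.6 CPM in PQ 1w, against 1.89 CPM in control 1w, and 3.33 CPM in PQ 4w, against 2.08 CPM in control 4w. Prg4 and Cd109 reached the required mean of 5 CPM only through the PQ 1w libraries, and a filter of this kind favours genes with the Timp1 pattern. For Timp2 they were Ap2m1, a clathrin adaptor subunit, Rab1b, a small GTPase of transport to the Golgi, and Chpf, a chondroitin synthesis enzyme, at 0.04 each, where the median gene stood at 0.27. For Timp3 they were Gab2, a signalling adaptor, Mfap3, a microfibril-associated protein, and Stt3b, an oligosaccharyltransferase subunit, at 0.07 to 0.08, with a median of 0.25. For Timp4 they were Prr29 at 0.23, the phospholipase gene Plch1 at 0.27 and Cfap52, a protein of cilia and flagella, at 0.28, with a median of 0.73. Cfap52 averaged 14.1 CPM in PQ 1w, 10.7 CPM in control 1w, 27.4 CPM in PQ 4w and 21.2 CPM in control 4w. Plch1 averaged 4.09 CPM in PQ 1w, 2.94 CPM in control 1w, 10.03 CPM in PQ 4w and 6.46 CPM in control 4w. It reached the required mean of 5 CPM only through the PQ 4w libraries, the group where Timp4 also averaged highest, so the filter favours this pattern too.

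The families of proteases that TIMPs act on held genes that rose and genes that fell at 1w. The counts below stand beside 25.9% of all tested genes higher and 22.9% lower at 1w, and 5.75% higher and 6.39% lower at 4w, and no test set the lists against other genes. Of 11 secreted MMPs tested, from 16 listed, 7 rose and 2 fell in PQ 1w, and 2 rose and 1 fell in PQ 4w, with median log2 effects of 0.90 and 0.24. Mmp10, among the 7 that rose, passed the filter on low counts only through the PQ 1w libraries. Its counts summed to 99.06 in PQ 1w, 1.09 in control 1w, 6.3 in PQ 4w and 0 in control 4w. A filter of this kind favours a rise in PQ 1w, so that call is not independent of the filter. Mmp2, a gelatinase whose precursor Timp2 binds, averaged 509 ± 79.3 CPM in PQ 1w, against 155 ± 11.997 CPM in control 1w, and rose 3.25-fold (log2 1.70 ± 0.12, adjusted p = 7.11e-07). At 4w Mmp2 was 1.93-fold higher in PQ (log2 0.95 ± 0.12, adjusted p = 0.00123). Mmp12, the macrophage elastase, averaged 31.7 ± 16.4 CPM in PQ 4w, against 4.38 ± 1.32 CPM in control 4w, a rise of 6.92-fold (log2 2.79 ± 0.35, adjusted p = 0.00105), and at 1w it rose 2.27-fold. Mmp9, whose precursor Timp1 binds, was lower in PQ at both times, at 9.82 ± 1.48 CPM in PQ 1w, against 19.8 ± 9.18 CPM in control 1w, and 9.99 ± 1.49 CPM in PQ 4w, against 24.5 ± 12.2 CPM in control 4w. Its log2 effect was -1.02 ± 0.35 at 1w (adjusted p = 0.0295) and -1.36 ± 0.35 at 4w (adjusted p = 0.0273), and both calls were marginal. At 1w it was -0.56 (adjusted p = 0.183) without control 1w replicate 3, and adjusted p was 0.0501 to 0.0933 without any 1 of the PQ 1w replicates. At 4w it was -0.94 without control 4w replicate 2. Adjusted p at 4w was 0.0723 to 0.117 without replicate 1 or 2 of PQ 4w or control 4w. It was 0.0666 with only the 2 groups in the fit, and the limma fits called Mmp9 at neither time. Of 5 neutrophil markers 2 fell in PQ 1w and 5 in PQ 4w. They summed to 85.2 to 149 CPM in PQ 1w, against 167 to 380 CPM in control 1w. At 4w the sum was 88.1 to 130 CPM in PQ, against 124 to 530 CPM in control. The part of neutrophils in the Mmp9 values was not tested.

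Of 6 membrane-type MMPs 3 rose and 1 fell in PQ 1w, and 2 rose and 0 fell in PQ 4w (1 rose without control 4w replicate 3 or without PQ 4w replicate 1). Mmp14, the protease that works with Timp2 on the Mmp2 precursor, averaged 544 ± 38.3 CPM in PQ 1w, against 114 ± 1.49 CPM in control 1w, and rose 4.72-fold (log2 2.24 ± 0.08, adjusted p = 1.07e-08). At 4w Mmp14 was 1.45-fold higher in PQ (adjusted p = 0.0021). Mmp15 averaged 109 ± 4.12 CPM in PQ 1w, against 232 ± 20.0 CPM in control 1w, 2.15-fold lower (adjusted p = 5.09e-07), and it did not pass at 4w (adjusted p = 0.296).

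Of 9 ADAM proteases 5 rose and 2 fell in PQ 1w, with 1 to 2 falling across the alternatives. This list also holds Adam8, Adam9 and Adam19, which TIMPs are not known to inhibit, and Adam9 and Adam19 are among the 5 that rose. At 4w edgeR, DESeq2 and limma called 0 of them, 2 had an unadjusted p under 0.05, and edgeR called 2 as higher without PQ 4w replicate 3. Adam12, a protease of activated mesenchyme, averaged 48.0 ± 3.19 CPM in PQ 1w, against 5.09 ± 1.16 CPM in control 1w (log2 3.22 ± 0.15, adjusted p = 2.69e-08). Adam10, a sheddase, was 1.497-fold higher in PQ 1w (adjusted p = 9.39e-05). Of 9 ADAMTS proteases 5 rose and 2 fell at 1w, and 2 rose and 2 fell at 4w (0 rose without control 4w replicate 2 or replicate 3). Adamts12 averaged 34.8 ± 8.86 CPM in PQ 1w, against 2.60 ± 0.325 CPM in control 1w (log2 3.73 ± 0.20, adjusted p = 9.54e-08). Adamts2, which trims procollagen, was 3.28-fold higher in PQ 1w (adjusted p = 3.48e-07) and did not pass at 4w. Adamts8 was lower at both times, 1.82-fold at 1w (adjusted p = 5.07e-06) and 1.74-fold at 4w (adjusted p = 0.000347).

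Among 4 other metalloproteinase inhibitors tested, 2 rose and 1 fell in PQ 1w. At 4w edgeR, DESeq2 and limma called 0 of them, with 2 at an unadjusted p under 0.05. Reck, a membrane-anchored MMP inhibitor, averaged 42.5 ± 1.94 CPM in PQ 1w, against 88.6 ± 5.98 CPM in control 1w, 2.10-fold lower (adjusted p = 5.58e-06). Thus Reck fell where Timp1 and Timp2 rose. At 4w Reck was -0.32 ± 0.10 on the log2 scale (adjusted p = 0.0621), and without control 4w replicate 2 it passed (adjusted p = 0.0127). A2m, the alpha-2-macroglobulin that traps proteases, averaged 6.65 ± 1.32 CPM in PQ 1w, against 0.887 ± 0.121 CPM in control 1w (log2 2.89 ± 0.29, adjusted p = 8.63e-06).

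Of 7 partners that TIMPs bind, 3 rose and 3 fell in PQ 1w, beside 25.9% and 22.9% of all genes, and 1 rose and 3 fell in PQ 4w (1 fell without control 4w replicate 1 and 0 with only the 2 groups in the fit, beside 6.39% of all genes). Cd63, a tetraspanin that serves as a receptor for Timp1, averaged 392.4 ± 14.7 CPM in PQ 1w, against 159 ± 15.4 CPM in control 1w, 2.44-fold higher (adjusted p = 1.95e-07), and it did not pass at 4w (adjusted p = 0.719). Kdr, the VEGF receptor that Timp3 blocks, was 1.86-fold lower in PQ 1w (adjusted p = 0.000615) and 1.72-fold lower in PQ 4w (adjusted p = 0.0096, and 0.0638 with only the 2 groups in the fit). The summed level of 7 endothelial markers was 3195 to 3616 CPM in PQ 1w, against 4429 to 5104 CPM in control 1w, and 2899 to 3784 CPM in PQ 4w, against 4845 to 5167 CPM in control 4w. Efemp1, a matrix protein that binds Timp3, was 2.07-fold lower in PQ 1w (adjusted p = 5.23e-06). Cd74, another Timp1 receptor, was 1.68-fold lower in PQ 1w (adjusted p = 0.000595) and 1.98-fold higher in PQ 4w (adjusted p = 0.0014), and these effects differed (interaction log2 1.74 ± 0.19, adjusted p = 8.41e-05).

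Of 7 cytokines known to induce Timp1, 6 rose and 1 fell in PQ 1w, with 4 to 6 rising across the alternatives, beside 25.9% of all genes higher. At 4w edgeR, DESeq2 and limma called 0 of them, 1 had an unadjusted p under 0.05, and edgeR called 1 as lower without PQ 4w replicate 3. Lif, an IL-6 family cytokine, averaged 21.7 ± 4.69 CPM in PQ 1w, against 4.28 ± 0.691 CPM in control 1w (log2 2.33 ± 0.27, adjusted p = 2.27e-05). Il11, of the same family, averaged 4.51 ± 0.799 CPM in PQ 1w, against 1.71 ± 0.225 CPM in control 1w (log2 1.38 ± 0.24, adjusted p = 0.000605). Il6 had 0.99 ± 0.403 CPM in PQ 1w, against 0.167 ± 0.0573 CPM in control 1w, and rose 5.73-fold (adjusted p = 0.0014) on low counts. Il6, among the 6 that rose, passed the filter on low counts only through the PQ 1w libraries. Its counts summed to 55 in PQ 1w, 9 in control 1w, 9 in PQ 4w and 4 in control 4w. A filter of this kind favours a rise in PQ 1w, so this call is not independent of the filter. Il1b, an inflammasome-processed cytokine, was lower in PQ 1w, at 5.47 ± 0.711 CPM, against 15.9 ± 8.11 CPM in control 1w (adjusted p = 0.00641).

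**Figure D5:**
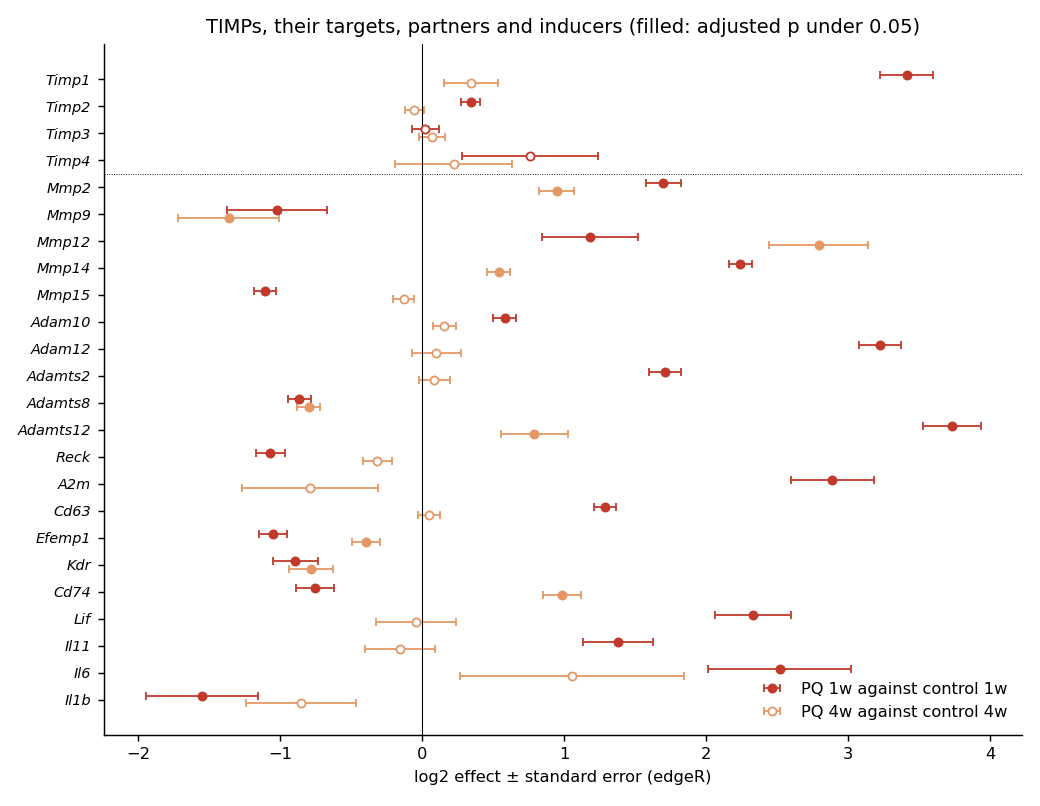
Log2 effects of PQ against control at each time for the TIMPs, above the dotted line, and the named proteases, inhibitors, partners and cytokines below it; points are edgeR estimates and bars are approximate standard errors, filled where adjusted p was under 0.05. Adamts12 and Adam12 stand at 3.73 and 3.22 at 1w, and Mmp12 at 2.79 at 4w.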

How the data were processed

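RNA of homogenized lung was sequenced on a BGISEQ 500 (labels' protocols). The submitters' processing notes name HISAT, RSEM 1.2.12 and mm10. The HISAT version, strandedness and annotation release were not given in the sources used here. Expected counts, which RSEM estimates for each gene, were deposited by the authors unscaled, per the file headers. Of the deposited values above 0, 69.7% were whole to within 1e-09, and all were rounded to whole numbers here for the count tests. FPKM values and gene lengths were deposited beside them by the authors, per the file headers. The 12 columns of the deposited combined FPKM table equalled the single tables.

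CPM is the expected count scaled to a library total of 1e6. edgeR 4.0.16 (R 4.3.3) fitted all 12 libraries with 4 group means, TMM factors (0.974 to 1.06) and filterByExpr (minimum count 10, minimum total 15). This left 15921 genes, and the threshold was a Benjamini-Hochberg adjusted p under 0.05. Standard errors of log2 effects are approximate, from the effect and its F statistic. Alternatives used DESeq2 1.42.0, limma 3.58.1 on log2(FPKM + 0.1) and log2(FPKM + 1), other scaling, no filter, a replicate block, only the 2 groups in the fit and each library left out. Sequences are from RefSeq, and exon overlaps from GENCODE. Levels of different genes were compared per length in FPKM; counts of host genes are given as ratios of reads only.

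The members, gene lists and named genes were chosen with earlier results of these data known. Named from each list were the 3 members with the smallest p at 1w and at 4w, of which the text gives some. For each TIMP, the 3 nearest of the genes with a mean of at least 5 CPM were named, on log2(CPM + 0.5).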

Additional observations from a re-analysis of the deposited data

Results flagged for a closer look

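For 20 of the genes whose effects or per-library values are given above, the PQ effect at 4w differed from that at 1w by the interaction term of the edgeR fit (adjusted p under 0.05). Over all tested genes 32.0% passed this test. Many of the genes above were named for a small p at 1w or 4w, and those effects form this term. The count can therefore not be read against that share. Genes that did not pass, such as Timp3 and Timp4, are not listed. The genes closest to each TIMP, chosen for their pattern, are not counted. The values below are the 4w effect minus the 1w effect on the log2 scale.

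Timp1 stood at -3.07 and Timp2 at -0.40. Among the proteases, Mmp2 stood at -0.75, Mmp12 at 1.61, Mmp14 at -1.70, Mmp15 at 0.97, Adam10 at -0.43, Adam12 at -3.12, Adamts2 at -1.62 and Adamts12 at -2.94. Among the other inhibitors, Reck stood at 0.75 and A2m at -3.67. Among the binding partners, Cd63 stood at -1.24, Efemp1 at 0.66 and Cd74 at 1.74. Among the cytokines, Lif stood at -2.37 and Il11 at -1.54. The host genes Syn2 and Syn3 stood at -1.01 and 0.76, and the ciliated cell gene Ccdc39 at 1.22 (adjusted p = 0.0469). The positive values of Mmp15, Reck, Efemp1, Cd74 and Syn3 go with genes that were lower in PQ 1w.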

How the results depend on the processing

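The calls of Timp1 and Timp2 at 1w, in the difference of the effects and between the PQ groups kept their direction and their side of the threshold under all alternatives run, with Timp1 at 1w between 3.32 and 3.48 and Timp2 between 0.31 and 0.38 on the log2 scale. The effect of Timp2 at 4w was 0.016 with library totals and 0.0171 in both limma fits, against -0.06. Between the control groups DESeq2 called Timp3 (-0.29) and Timp4 (1.49), and Timp4 also passed with the replicate block, an arbitrary pairing here (1.52, adjusted p = 0.046), and with only the 2 groups in the fit (1.5045). Same-numbered libraries were not paired: of 18 pairs 5 had a correlation of deviations over 0.1 (-0.37 to 0.33), and 3 of 12 libraries were closest to their own number. The replicate block also brought Reck at 4w past the threshold (adjusted p = 0.0388). The Timp2 share difference at 1w was 3.54 percentage points in counts without length, against -2.77 in FPKM. The Lif effect at 4w was 0.025 with library totals and 0.0042 in limma on log2(FPKM + 1), against -0.04.

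With single libraries left out, Timp3 at 1w spanned -0.045 to 0.0803, Timp4 at 1w 0.53 to 1.01, Timp1 at 4w 0.16 to 0.63, Timp2 at 4w -0.08 to -0.01, Timp3 at 4w -0.0013 to 0.15 and Timp4 at 4w -0.21 to 0.65. The Timp3 difference of effects spanned -0.0279 to 0.13, Timp3 between PQ groups -0.30 to -0.14, Timp4 between PQ groups 0.54 to 1.38 and Timp4 between control groups 1.45 to 1.54. Lif at 4w spanned -0.29 to 0.22, Il11 at 4w -0.38 to 0.0021, Syn3 at 4w -0.15 to 0.0321 and Syn2 between control groups -0.26 to 0.0518. The number of genes called at 4w was 1932, with 746 for only the 2 groups in the fit and 641 (without control 4w replicate 1) to 2104 with libraries left out. Between the control groups it was 1609, with 123 (without control 4w replicate 2) to 2570 (without PQ 4w replicate 3) with libraries left out. The causes of these shifts were not tested. Timp4 rested on 21 to 118 counts a library.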
